A study of Monodelphis domestica with 7 samples.

Results

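The protocadherins PCDH1 (ENSMODG00000010471), PCDH9 (ENSMODG00000000011) and PCDH18 (ENSMODG00000000040) were followed in the spinal cord of the gray short-tailed opossum, *Monodelphis domestica*, a marsupial whose young are born very immature. They were taken by gene identifier, with earlier results of these data known, and are 3 of the 21314 genes in the count table; all 3 passed the filter on low counts. The cord was cut completely at thoracic level T10 at postnatal day 7 (P7) or 28 (P28), and the segment rostral to the cut was collected 24 h later for RNA sequencing. Injured cords (P7+24h and P28+24h) and P8 control cords had 2 libraries each, and P29 control cords had 1. By the paper's methods every library held RNA pooled from 2 individuals. The animal numbers the paper gives per group are larger than these pools would need. Pups of both sexes were used, and no strain or genetic change separated the groups. At P28 the uninjured pups of operated litters were anaesthetised and kept as controls, whereas the P8 controls came from litters of their own; which litters entered which pool is not given in the sources used here.

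Protocadherins are the largest branch of the cadherin superfamily, single-pass membrane proteins whose extracellular cadherin repeats bind matching molecules on neighbouring cells. Unlike classical cadherins they lack the tail segment that binds beta-catenin, and they signal through other partners to the actin cytoskeleton. PCDH1, PCDH9 and PCDH18 belong to the non-clustered group, which are encoded by separate genes instead of the large clustered arrays. In developing nervous tissue members of this group take part in cell sorting, axon growth and the forming of circuits. In the RefSeq gene order of assembly mMonDom1.pri, PCDH1 lies between ARAP3 and DELE1, PCDH9 is a direct neighbour of another non-clustered protocadherin, PCDH20, and PCDH18 lies beside SLC7A11.

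The libraries were made in 2 sequencing runs whose samples were also collected separately. Replicate 1 of each group was from run 1 and replicate 2 from run 2, and the only P29 control library was from run 1. Library totals were 3332232 to 3954359 counts in run 1 and 5611197 to 6256074 in run 2, and 3 counts, the limit that a count of 0 allows, corresponded to 0.449 to 1.06 CPM. CPM here is a gene's count relative to the total of its library, that total being adjusted by the TMM factor. Gene lengths were not at hand, so levels are compared between libraries and not between genes. Of the cell type marker lists, 8 had at least 1 identified gene and no such gene was at 0, but neurons, pericytes and ependymal cells had none, so the neuronal content of the cord was not checked. In bulk tissue fewer cells of a type and less RNA per cell cannot be told apart, and p-values measure only the spread between these pooled libraries. Reads shared with a paralog or with a gene overlapping on the other strand could have been counted on either gene or left out, since the use of strand is not named.

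PCDH1, a protocadherin also known from epithelia and vessels, separated the libraries by run more than by age or injury. In run 1 it was at 39.4 CPM in the P8 control, 32.6 in the P7+24h injured, 42.8 in the P29 control and 22.6 in the P28+24h injured library. In run 2 it was at 249.1 CPM in the P8 control, 247.6 in the P7+24h injured and 123.9 in the P28+24h injured library. Each run 2 library was above every run 1 library, an order not counted over all genes. In both runs the P28+24h injured library was the lowest. The group means were therefore 144 ± 148 CPM in P8 control (SD, n = 2), 140 ± 152 in P7+24h injured (SD, n = 2) and 73.2 ± 71.6 in P28+24h injured cords (SD, n = 2). These SDs are about as large as the means and take in the difference between the runs, and the group means showed no order beyond them. They do not measure the order within a run.

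PCDH9, which is expressed by neurons and by cells of the oligodendrocyte lineage, showed a lower level in the young cord of run 1. In that run it was at 61.6 CPM in the P8 control, 48.9 in the P7+24h injured, 136.8 in the P29 control and 85.8 in the P28+24h injured library. In run 2 it was at 150.8 CPM in the P8 control, 144.9 in the P7+24h injured and 173.7 in the P28+24h injured library. Within each run the injured cord at P28+24h was above both P8 control and P7+24h injured, and the P29 control was the highest of run 1. The group means were 106 ± 63.0 CPM in P8 control (SD, n = 2), 96.9 ± 67.9 in P7+24h injured (SD, n = 2) and 130 ± 62.1 in P28+24h injured cords (SD, n = 2), so the groups overlapped.

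PCDH18, which has been linked to cell movement in vertebrate embryos, was the least run-dependent of the 3. In run 1 it was at 32.7 CPM in the P8 control, 29.2 in the P7+24h injured, 35.4 in the P29 control and 19.1 in the P28+24h injured library. In run 2 it was at 55.7 CPM in the P8 control, 47.0 in the P7+24h injured and 27.4 in the P28+24h injured library. Both P28+24h injured libraries were below all other libraries, an order not counted over all genes. Both were below the P29 control in 22.5% of tested genes, and below both P7+24h injured libraries in 22.5%. The group means were 44.2 ± 16.3 CPM in P8 control (SD, n = 2), 38.1 ± 12.6 in P7+24h injured (SD, n = 2) and 23.2 ± 5.89 in P28+24h injured cords (SD, n = 2).

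**Figure D1:**
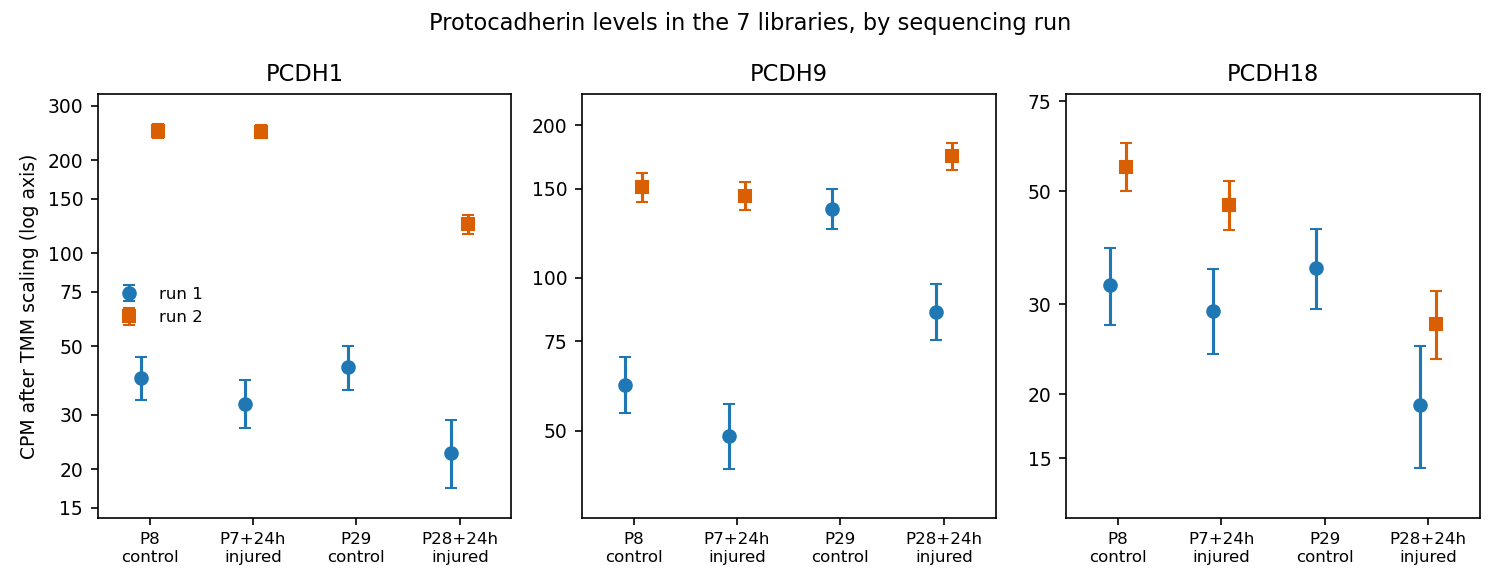
Levels of PCDH1, PCDH9 and PCDH18 in CPM after TMM scaling on a log axis, for the 4 groups along the horizontal axis. Each point is 1 library, circles are run 1 and squares run 2, and bars are exact 95% Poisson intervals that cover counting error only; for PCDH1 every square lies above every circle, whereas for PCDH18 both P28+24h injured libraries lie lowest.

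The difference between runs was measured in the fit with the run as a block. PCDH1 was higher in run 2 by 2.69 on the log2 scale (SE 0.15), a 6.47-fold difference that placed it 43rd of 13534 tested genes, with 0.318% of genes at or above it. The difference was 2.65 in P8 control, 2.91 in P7+24h injured and 2.43 in P28+24h injured cords on the log2 scale, so it was present in each group with both runs. PCDH9 was higher in run 2 by 1.29 on the log2 scale (SE 0.14), which is 2.44-fold, and 7.85% of genes were at or above it. PCDH18 was higher by 0.67 on the log2 scale (SE 0.15), which is 1.59-fold, and 19.7% of genes were at or above it. All 3 members were higher in run 2 in each of the 3 groups, as were 35.9% of all tested genes; PCDH1 and PCDH9 were higher by at least 2-fold in each, as were 6.84% of genes. Over all tested genes the median run difference was 0.01 on the log2 scale, with an SD of 0.83. Collection and sequencing differ together between the runs and cannot be told apart.

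**Figure D2:**
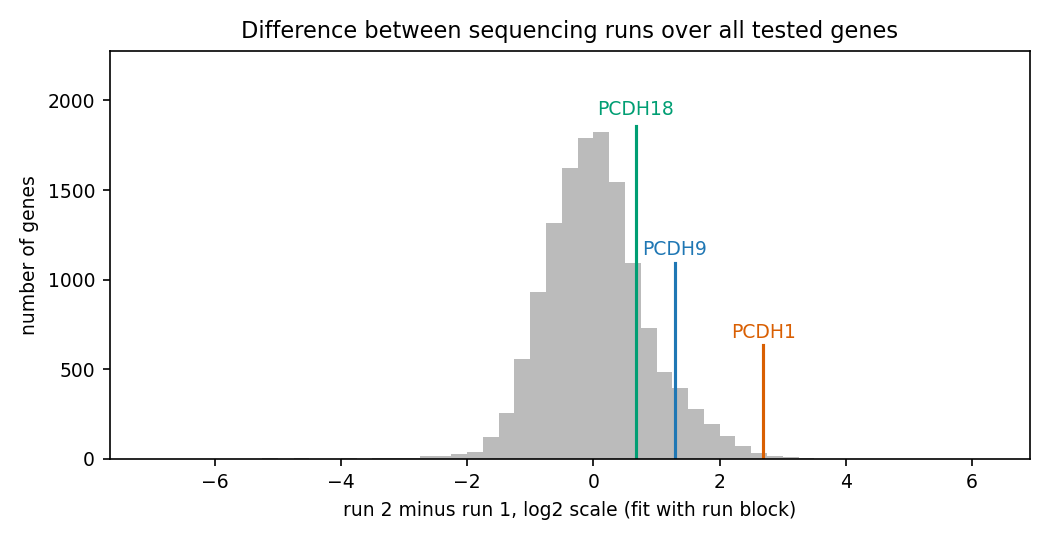
Histogram of the run 2 minus run 1 difference on the log2 scale for the 13534 tested genes, from the fit with the run as a block; the vertical axis counts genes. Vertical lines mark PCDH18 at 0.67, PCDH9 at 1.29 and PCDH1 at 2.69, the last in the upper tail of the distribution.

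The first comparison asked what changed 24 h after injury at P7, an age at which cut axons of this species can still grow across the lesion. No change of the 3 protocadherins was found. Within run 1 the ratio of P7+24h injured to P8 control was 0.827 for PCDH1 (95% interval 0.649 to 1.05), 0.793 for PCDH9 (0.652 to 0.962) and 0.892 for PCDH18 (0.687 to 1.16). Within run 2 the ratios were 0.994 for PCDH1 (0.926 to 1.07), 0.961 for PCDH9 (0.877 to 1.05) and 0.843 for PCDH18 (0.721 to 0.986). These exact binomial intervals cover counting error between the pair of libraries only. All 3 members were thus slightly lower in injured cords in both runs, as were 26.7% of tested genes, and the groups of each member overlapped.

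In the fit over the 4 groups without a block, the log2 fold change at P7+24h was -0.04 for PCDH1 (SE 1.27), -0.13 for PCDH9 (SE 0.68) and -0.21 for PCDH18 (SE 0.42), each with a Benjamini-Hochberg adjusted p of 1 in edgeR's quasi-likelihood test. Genes were called where the adjusted p was below 0.05 and the change at least 2-fold, and 0% of tested genes were called (0 genes; 69 had an unadjusted p under 0.05). With the run as a block, 0.0148% of genes were called and the SEs shrank. The 95% interval of the log2 fold change was then -0.48 to 0.25 for PCDH1, -0.55 to 0.20 for PCDH9 and -0.59 to 0.17 for PCDH18, so that a 2-fold change in either direction lay outside each interval. The adjusted p remained 1 for each. Without the block, leaving out 1 library leaves the 2 groups with unlike runs, so the run difference enters the value. Such fits turned the sign of these small values. Without P8 control replicate 2 they were 1.84, 0.66 and 0.22, and without P7+24h injured replicate 1 they were 0.77, 0.44 and 0.08. With the block they were -0.15, -0.18 and -0.12 without P8 control replicate 2. With the block and without P7+24h injured replicate 1, PCDH1 was at 0.03, PCDH9 at 0.0037 and PCDH18 at -0.20.

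The second comparison asked the same at P28, an age at which such growth no longer occurs. All 3 protocadherins were lower in the injured cord than in the control of the same run, but whether this passes the test depends on the model. Like all genes with a symbol here, the members were picked by the study from these same samples. The paper names PCDH1 and PCDH18 in its group of cell adhesion genes with changed expression at P28. Its limits were an adjusted p below 0.05 and a change above 2-fold. The shared direction of the 3 members is therefore no independent result. The exact test without a block, run here on all libraries, called 3 genes at P28+24h, far fewer than the paper lists. In the only pair of libraries from 1 run, PCDH1 was 1.89-fold lower in the P28+24h injured library (95% counting interval 1.40 to 2.58), from 149 to 64 counts. PCDH9 was 1.59-fold lower (1.36 to 1.87), from 476 to 243 counts, and PCDH18 was 1.85-fold lower (1.34 to 2.60), from 123 to 54 counts. About as many genes as not were lower in this pair, namely 50.4%, but a drop of at least 2-fold was seen in 6.72% of genes and in none of the 3 members.

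The second injured library came from run 2 and had no control in that run. Against the run 1 control it was 2.89-fold higher for PCDH1 (2.42 to 3.47), 1.27-fold higher for PCDH9 (1.14 to 1.42) and at 0.775 of the control for PCDH18 (0.611 to 0.986), while 50.2% of tested genes were higher. PCDH18 was the only member whose groups did not overlap, as was so, in the lower direction, for 22.5% of tested genes. Without a block the log2 fold change was 0.79 for PCDH1 (SE 1.63), -0.07 for PCDH9 (SE 0.83) and -0.60 for PCDH18 (SE 0.51), with an adjusted p of 1 for each in the quasi-likelihood test, which called 0% of genes (0 genes; 157 had an unadjusted p under 0.05).

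With the run as a block, both injured libraries entered the estimate, the run 2 library after adjustment for a run difference estimated from the 3 groups that have both runs. PCDH1 then had a log2 fold change of -1.08 (SE 0.24, 95% interval -1.60 to -0.55, adjusted p = 0.0647, quasi-likelihood test). PCDH18 had -0.98 (SE 0.24, interval -1.52 to -0.44, adjusted p = 0.0902) and PCDH9 had -0.82 (SE 0.22, interval -1.29 to -0.34, adjusted p = 0.107). None of the 3 passed in this fit, in which 0.17% of genes were called lower. The likelihood ratio test with the same block, which treats the dispersion as known and is the more liberal, called PCDH1 lower (log2 fold change -1.08, adjusted p = 0.00515), as it did 1.03% of genes. By the adjusted p alone it also passed PCDH18 (adjusted p = 0.0162) and PCDH9 (adjusted p = 0.0268), both short of 2-fold, together with 1.94% of genes that were lower.

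The calls changed when libraries were left out, while every blocked estimate stayed below 0. With fewer libraries the blocked fit called more genes whichever library was left out, 300 to 960 against 102 with all, also when the library was in neither group compared. Where an injured P28+24h library is left out, 1 injured library is set against 1 control and the spread comes wholly from the other groups, so these adjusted p-values hold no replicate of the pair. With the block and without P28+24h injured replicate 1, all 3 members were called lower in the quasi-likelihood test: PCDH1 at -1.25 (adjusted p = 6.70e-07), PCDH9 at -1.08 (adjusted p = 6.33e-07) and PCDH18 at -1.10 (adjusted p = 0.00088), in a fit with 1 residual degree of freedom and no injured library from the run of the control. Without P28+24h injured replicate 2, which leaves the run 1 pair, all 3 passed the adjusted p (0.00047 for PCDH1, 0.000147 for PCDH9 and 0.00251 for PCDH18) and none reached 2-fold. PCDH1 was also called without P8 control replicate 1 (adjusted p = 0.0239) or replicate 2 (adjusted p = 0.0181). Without the block, PCDH1 was at 1.52 without P28+24h injured replicate 1 and at -0.98 without replicate 2, and PCDH9 was at 0.34 without replicate 1. Over all 26 alternatives tried for each member the adjusted p ran from 6.33e-07 to 1.

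Some marker lists also differed between the P29 control and the P28+24h injured libraries, and others did not. Only markers with a symbol could be summed, and the study had itself picked those genes from these samples. The summed level of 4 of 9 myelinating oligodendrocyte markers was 94170 CPM in the P29 control and 51130 to 65020 in the P28+24h injured libraries, against 107 to 332 in the P8 and P7+24h libraries. The 5 of 9 identified microglia and macrophage markers summed to 118.7 CPM in the P29 control and 249.7 to 414.6 in the P28+24h injured libraries, and 3 of 8 skeletal muscle markers to 3.16 and to 31.3 to 118.7. Of the oligodendrocyte precursor markers, 2 of 7 were identified and summed in run 1 to 412.9 CPM in the P29 control and 177.6 in the P28+24h injured library, and in run 2 to 606.6 in the injured library. Like the 3 members and 35.9% of tested genes, these precursor markers were higher in run 2 in each group with both runs. Their sum was 25.5 and 73.2 CPM in the P8 controls. The astrocyte marker GFAP and the myelinating oligodendrocyte markers were also higher in run 2 in each such group. VIM and the red blood cell markers were lower in run 2 in each. Of the astrocyte markers only GFAP was identified, at 1552 CPM in the P29 control and 1455 to 2386 in the P28+24h injured libraries. VIM, the 1 progenitor marker of 7 with an identifier, was at 647.4 CPM in the P29 control and 1022 to 1459 after injury. The 2 of 8 endothelial markers summed to 164.1 CPM in the control and 126.4 to 160.2 after injury, and the 3 of 7 red blood cell markers to 215.8 and to 134.1 to 457. The part of these cell types in the protocadherin values was not tested.

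**Figure D3:**
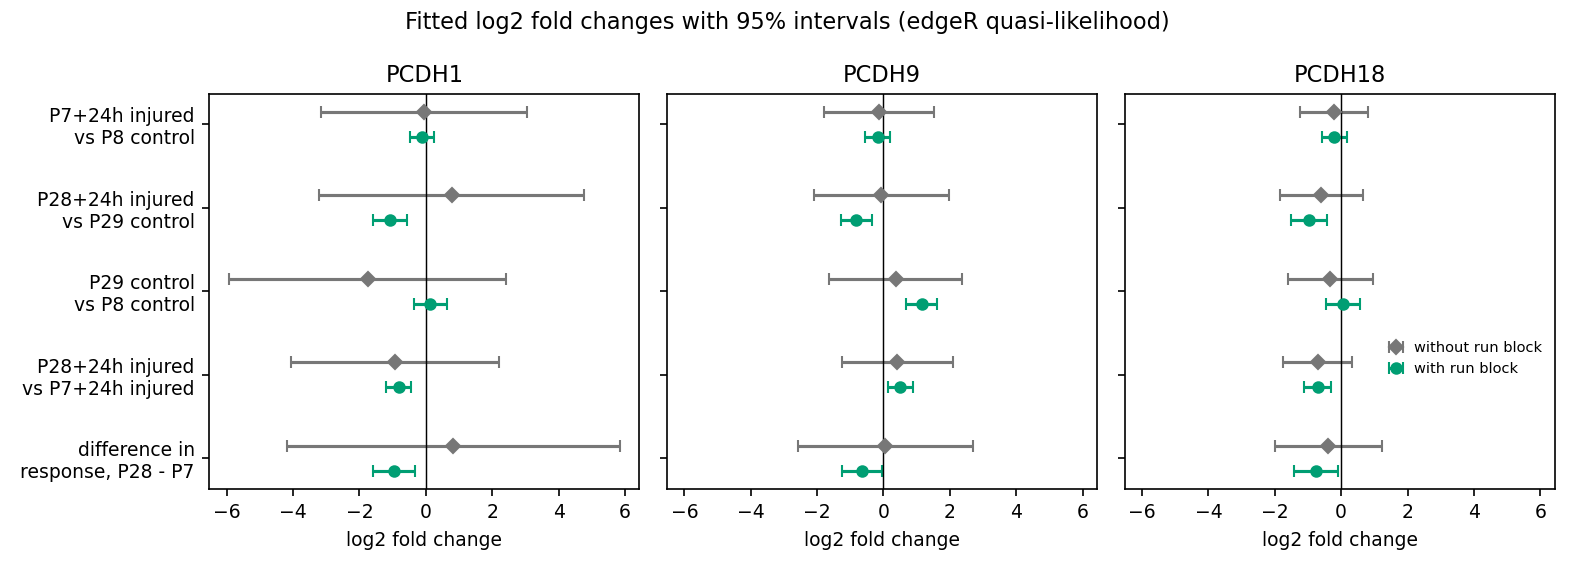
Fitted log2 fold changes (horizontal axis) with 95% intervals from edgeR's quasi-likelihood test for each comparison (vertical axis), without the run block (grey diamonds) and with it (green circles). For PCDH1 the P28+24h estimate is 0.79 without the block and -1.08 with it, whereas for PCDH18 it lies below 0 both ways, at -0.60 and -0.98.

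The third comparison set the P29 control against the P8 control and concerns normal maturation of the cord. PCDH9 was the only member called, as higher at P29, and it was called only with the run as a block. In run 1 it was 2.22-fold higher at P29 than at P8 (95% counting interval 1.90 to 2.60), from 249 to 476 counts, whereas PCDH1 was at 1.09 of the P8 level (0.864 to 1.37) and PCDH18 at 1.08 (0.839 to 1.39). All 3 were thus on the higher side in the run 1 pair, as were 50.3% of tested genes. Without the block the log2 fold change was 0.36 for PCDH9 (SE 0.82, adjusted p = 0.840), -1.75 for PCDH1 (SE 1.71, adjusted p = 0.607) and -0.32 for PCDH18 (SE 0.52, adjusted p = 0.765), none of them called in a quasi-likelihood fit that called 1.79% of genes.

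With the run as a block PCDH9 was called higher at P29, with a log2 fold change of 1.15 (SE 0.22, 95% interval 0.67 to 1.63, adjusted p = 0.00281, quasi-likelihood test), as were 12.5% of tested genes. The P29 level of 136.8 CPM in 1 library was higher than the run 1 P8 control and lower than the run 2 P8 control. The blocked estimate was close to the log2 ratio of the run 1 pair, which was 1.15. Without the block the difference between the P8 controls of the 2 runs enters both the estimate and the spread. In the same fit PCDH1 was at 0.14 (SE 0.23, interval -0.36 to 0.64, adjusted p = 0.681) and PCDH18 at 0.06 (SE 0.23, interval -0.46 to 0.58, adjusted p = 0.872). Scaling by library size alone lowered the median log2 change of all genes by 0.26 in the blocked fit, from -0.02 to -0.27, and turned 1690 higher and 1203 lower calls into 1176 and 1764. PCDH9 was then at 0.90 (adjusted p = 0.0141), still past the adjusted p but short of 2-fold, while PCDH1 and PCDH18 turned to -0.12 and -0.20. Without the block, PCDH9 was at -0.14 without P8 control replicate 1, and without P8 control replicate 2 PCDH1 was at 0.12 and PCDH18 at 0.11. This comparison and the P28+24h comparison share the single P29 control library. From the P8 controls to the P29 control, marker sums differed as well. Oligodendrocyte precursor markers were at 25.5 and 73.2 CPM at P8 and 412.9 at P29, myelinating oligodendrocyte markers at 132 and 332 and then 94170, GFAP at 256 and 672 and then 1552, and VIM at 2196 and 1939 and then 647.4. Microglia and endothelial markers were also higher at P29, at 118.7 against 26.2 to 28.7 CPM and 164.1 against 44.0 to 49.8. Red blood cell and skeletal muscle markers, at 215.8 and 3.16 CPM, lay within the P8 ranges of 55.4 to 283 and 2.23 to 3.63. The part of these cell types in the PCDH9 call was not tested.

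The injured cords of both ages, the only comparison of ages made here with both runs on each side, were then compared. Age and the response to injury at each age enter this contrast together and cannot be told apart in it. From P8 to P29 control, the blocked log2 fold change was 0.14 for PCDH1, 0.06 for PCDH18 and 1.15 for PCDH9. PCDH1 and PCDH18 were lower and PCDH9 higher at P28+24h than at P7+24h in each run. PCDH1 was 1.44-fold lower in run 1 (95% counting interval 1.06 to 1.98) and 2.00-fold lower in run 2 (1.83 to 2.18). PCDH18 was 1.53-fold lower in run 1 (1.10 to 2.16) and 1.71-fold lower in run 2 (1.42 to 2.08). PCDH9 was 1.76-fold higher in run 1 (1.45 to 2.14) and 1.20-fold higher in run 2 (1.10 to 1.31). Of all tested genes, 38.7% were lower and 40.7% higher in both runs, and PCDH18 was the only member whose groups did not overlap, as in 22.5% of genes on the lower side.

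The fit without the block gave a log2 fold change of -0.93 for PCDH1 (SE 1.28, adjusted p = 0.725), 0.42 for PCDH9 (SE 0.68, adjusted p = 0.768) and -0.71 for PCDH18 (SE 0.42, adjusted p = 0.403), while 2.81% of genes were called in the quasi-likelihood test. With the block, all 3 passed the adjusted p and none the 2-fold limit. PCDH1 fell by 0.82 on the log2 scale (SE 0.17, 95% interval -1.21 to -0.44, adjusted p = 0.00363) and PCDH18 fell by 0.71 (SE 0.18, interval -1.12 to -0.30, adjusted p = 0.0105). PCDH9 rose by 0.51 (SE 0.17, interval 0.13 to 0.89, adjusted p = 0.0347). The adjusted p alone was passed by 18.8% of genes on the lower side and 22.5% on the higher side. With library size scaling the blocked fit had a median over all genes of -0.16 in place of 0.03, and 1404 higher and 1655 lower calls in place of 1873 and 1191. PCDH9 was then at 0.32 and no longer passed (adjusted p = 0.145), while PCDH1 and PCDH18 remained past the adjusted p at -0.99 and -0.89.

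Without the block, PCDH1 was at 1.18 in this contrast without P7+24h injured replicate 2, and PCDH9 was at -0.23 without P28+24h injured replicate 2 and at -0.16 without P7+24h injured replicate 1. In the blocked fits that left out 1 library, PCDH1 ran from -0.96 to -0.59, PCDH9 from 0.32 to 0.74 and PCDH18 from -0.78 to -0.64. These adjusted p-values no longer passed for PCDH1 without P7+24h injured replicate 2 (adjusted p = 0.175), or for PCDH9 and PCDH18 without replicate 2 (adjusted p = 0.0626 and 0.141) or replicate 1 of that group (adjusted p = 0.481 and 0.0917). Myelinating oligodendrocyte markers were higher at the older age as well, with 107 to 321 CPM in the P7+24h injured libraries against 51130 to 65020 at P28+24h. Oligodendrocyte precursor markers were at 24.2 to 81.8 CPM at P7+24h and 177.6 to 606.6 at P28+24h, GFAP at 406 to 996 and 1455 to 2386, microglia markers at 88.8 to 107.4 and 249.7 to 414.6, and endothelial markers at 38.1 to 46.8 and 126.4 to 160.2. VIM was lower at the older age, with 2715 to 3089 CPM at P7+24h and 1022 to 1459 at P28+24h. Skeletal muscle markers were at 3.41 to 10.2 and 31.3 to 118.7 CPM, and red blood cell markers overlapped at 51.3 to 190.1 and 134.1 to 457. In all but the red blood cell list the injured groups did not overlap. Of single tested genes, 22.5% did not overlap on the lower side, and the share on the higher side was not counted. The part of these cell types in the protocadherin values was not tested.

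The counts of 2 members in the same library give a ratio that does not depend on library scaling, although without gene lengths it counts reads and not molecules. PCDH1 had 0.639 counts per PCDH9 count in the run 1 P8 control, 0.667 in P7+24h injured, 0.313 in P29 control and 0.263 in P28+24h injured. In run 2 the ratio was 1.65 in P8 control, 1.71 in P7+24h injured and 0.713 in P28+24h injured. In run 1 both libraries of the older cord, and in run 2 its only library, from injured cord, had a lower ratio than the libraries of the younger cord. Between PCDH1 and PCDH18 the ratio was 1.12 to 1.21 in the 4 libraries of run 1 and 4.47 to 5.27 in the 3 of run 2, so it followed the run and showed little spread with age or injury. PCDH9 had 1.68 to 3.09 counts per PCDH18 count in the 4 younger libraries and 3.87 to 6.34 in the 3 older ones.

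**Figure D4:**
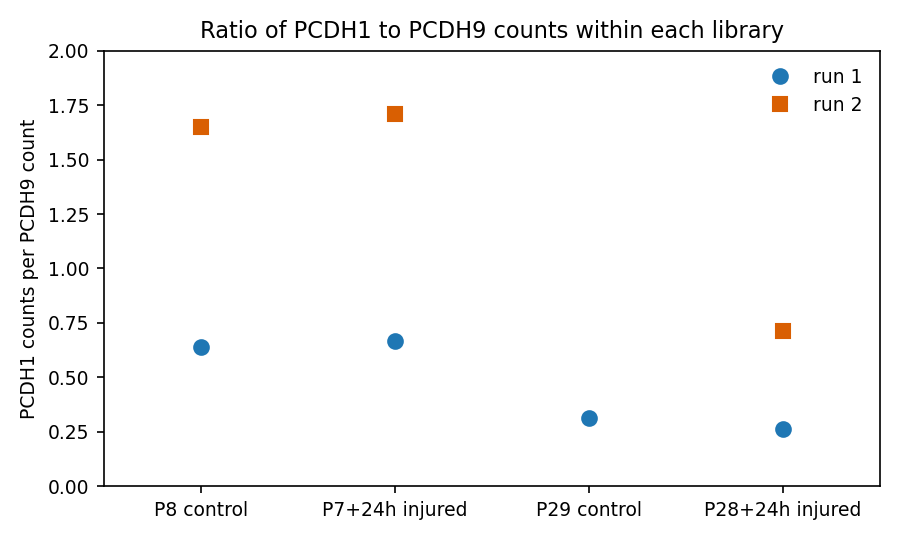
Counts of PCDH1 per count of PCDH9 within each of the 7 libraries (vertical axis, linear from 0), by group along the horizontal axis, with circles for run 1 and squares for run 2. The ratio is 0.263 and 0.313 in the older run 1 libraries against 0.639 and 0.667 in the younger ones, and 0.713 against 1.65 and 1.71 in run 2.

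Whether the response to injury differed between the ages was tested as the log2 fold change at P28+24h minus that at P7+24h. No member passed with all libraries. With the run as a block the difference was -0.96 for PCDH1 (SE 0.29, 95% interval -1.59 to -0.33, adjusted p = 0.292), -0.77 for PCDH18 (SE 0.30, interval -1.43 to -0.11, adjusted p = 0.446) and -0.64 for PCDH9 (SE 0.28, interval -1.25 to -0.03, adjusted p = 0.505) in the quasi-likelihood test, which called 0.0369% of genes. The blocked likelihood ratio test gave an adjusted p of 0.135 for PCDH1, 0.344 for PCDH18 and 0.439 for PCDH9. Without the block the differences were 0.83 for PCDH1 (SE 2.05), 0.06 for PCDH9 (SE 1.08) and -0.38 for PCDH18 (SE 0.66), with an adjusted p of 1.00 for each, and 0% of genes were called (0 genes; 59 had an unadjusted p under 0.05). With the block and without P28+24h injured replicate 1, the difference was -1.15 for PCDH1, -0.90 for PCDH9 and -0.87 for PCDH18. Without P28+24h injured replicate 2 PCDH1 was at -0.88 and PCDH9 at -0.56. Both fits set 1 injured library against 1 control at the older age, so only the size of the difference is given. The sign turned without the block as well: without P8 control replicate 2 PCDH1 was at -1.05 and PCDH9 at -0.73, without P28+24h injured replicate 2 they were at -0.93 and -0.59, without P7+24h injured replicate 1 PCDH9 was at -0.52, and without P7+24h injured replicate 2 PCDH18 was at 0.0054. This difference uses the same libraries as both injury comparisons.

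Of the 13 non-clustered protocadherins listed, only PCDH20 (ENSMODG00000006279) besides the 3 members had an identifier paired with its symbol. Genes with such a pair were picked by the study from these same samples. The direction of PCDH20 after injury is therefore no independent evidence on the family. PCDH20, a non-clustered protocadherin of neural tissue, was at 22.0 CPM in the P8 control, 21.01 in P7+24h injured, 42.8 in P29 control and 18.0 in P28+24h injured of run 1. In run 2 it was at 41.4 CPM in P8 control, 33.7 in P7+24h injured and 36.3 in P28+24h injured. As with PCDH9, its run 1 P29 control stood above its P8 control, by 1.94-fold, and as with all 3 members its P28+24h library of that run was below the control, by 2.38-fold (95% counting interval 1.72 to 3.34). With the block its log2 fold change at P28+24h was -1.15 (SE 0.25, interval -1.69 to -0.61, adjusted p = 0.0603, quasi-likelihood test), and the likelihood ratio test called it (adjusted p = 0.00256). From P8 to P29 control PCDH20 passed the adjusted p with the block at 0.93 (SE 0.24, adjusted p = 0.0142), short of 2-fold, and 16.7% of genes passed it on the higher side. By symbol, clustered protocadherins, classical and atypical cadherins, catenins and the listed intracellular partners had 0 identifiers and were not analysed here. A gene without a symbol (ENSMODG00000017233) is described as similar to CTNNA3, an alpha-catenin of the classical cadherin complex, and was added after its values were seen. In run 1 this CTNNA3-like gene was at 13.4 CPM in the P8 control, 17.1 in P7+24h injured, 50.6 in P29 control and 21.9 in P28+24h injured, and in run 2 at 22.1 in P8 control, 21.4 in P7+24h injured and 26.3 in P28+24h injured. Its P29 control was above every other library, an order not counted over all genes. Without the block it was not called at P28+24h (log2 fold change -1.07, SE 0.42, adjusted p = 1) or from P8 to P29 control (1.51, SE 0.42, adjusted p = 0.141). With the block the quasi-likelihood test called it lower at P28+24h (-1.31, SE 0.26, adjusted p = 0.048) and higher from P8 to P29 control (1.74, SE 0.26, adjusted p = 0.000638), both against the same P29 library. For the difference in response its adjusted p was 0.198 in that test and 0.0142 in the blocked likelihood ratio test.

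The genes whose level followed each member most closely were sought by Pearson's r of log2 CPM over the 7 libraries, among 672 tested genes with a symbol, which the study had itself picked from these samples. For PCDH1 these were ARHGAP35 (r = 0.995), TANC2, a postsynaptic scaffold (r = 0.995), and ASTN1, a membrane protein of neuron migration along glia (r = 0.987). For PCDH9 they were PRKCA, a protein kinase C (r = 0.994), PFKFB2, a regulator of glycolysis (r = 0.994), and SYT2, a calcium sensor of synaptic vesicles (r = 0.987). For PCDH18 they were TRIM2, a ubiquitin ligase (r = 0.981), USP14, a proteasome-bound deubiquitinase (r = 0.962), and SEMA4F, a semaphorin (r = 0.952). The libraries share their runs: ARHGAP35, like PCDH1, was at 22.6 to 49.4 CPM in run 1 and 123.6 to 225.1 in run 2. Among the members themselves r was 0.797 for PCDH1 with PCDH18, 0.725 for PCDH1 with PCDH9 and 0.418 for PCDH9 with PCDH18. These values describe 7 libraries and carry no test.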

How the data were processed

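Spinal cord RNA was sequenced as single-end reads in 7 libraries. After trimming, the authors aligned reads to the genome of Ensembl release 69 by Bowtie2 and assigned them to genes by HTSeq (union mode). The deposited table holds the resulting raw counts, whole numbers with no scaling. Their methods name edgeR 2.6.12 and its exact test.

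TMM factors were computed from the deposited counts, and the 13534 genes kept by filterByExpr, whose minimum count is 10, entered a quasi-likelihood test in edgeR 4.0.16 over the 4 groups without a block (3 residual degrees of freedom), with Benjamini-Hochberg adjustment. Calls needed a change of at least 2-fold with an adjusted p below 0.05. The replicate number is the sequencing run in the labels, so it pairs samples. Across genes, the run 2 minus run 1 change in log2 CPM correlated at 0.70 to 0.80 between pairs of groups with both runs. The common dispersion was 0.141 without the run as a block and 0.0181 with it (2 residual degrees of freedom). Correlations used log2 CPM with a prior count of 2. Intervals of counts and of ratios within a pair of libraries are exact at 95% and cover counting error only, whereas those of fitted changes come from the standard error of the fit and take in the spread between libraries.

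Alternatives were the block with quasi-likelihood and likelihood ratio tests, edgeR's exact test, DESeq2 1.42.0, RLE factors, library size only, other low-count filters, fits on the compared groups and leaving out each replicate. The scripts were tested on simulated data. R 4.3.3, limma 3.58.1 and Python 3.11 were used.

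The members and gene lists were chosen with earlier results of these data known. The genes named are the 3 members, the members of fixed protocadherin, cadherin, catenin and partner lists, and for each member the 3 genes most correlated with it; others are said to be chosen otherwise. Symbols came from pairs of symbol and identifier in the study's supplementary tables (782 identifiers, 683 with a symbol). No identifier matched the RefSeq table, which was used for gene order alone, and no coordinates or sequences are given.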

Additional observations from a re-analysis of the deposited data

How the results depend on the processing

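The count of genes called depended on the replicate block and on the test. In the order of injury at P7+24h, injury at P28+24h, control age, injured age and difference in response, the fit without a block called 0, 0, 242, 380 and 0 genes, the quasi-likelihood fit with the replicate block 2, 102, 2893, 3064 and 5, and the likelihood ratio test with it 36, 493, 3242, 3274 and 200. With the block and RLE factors these were 2, 122, 2901, 3073 and 9. With the block and library size only, 1, 0, 2940 and 3059 genes were called in the first 4, so that every call at P28+24h was lost and the adjusted p of the members there was 0.138 to 0.189. These last scalings with the block were added after seeing the data. Without a block, the exact test on all libraries called 5, 3, 972 and 1301 genes in the first 4, and on the compared groups 6, 3, 1151 and 969. DESeq2 called 2, 862 and 1019 in the first, the third and the fourth, and library size only 138 and 229 in the third and the fourth. Fitted to the compared groups alone, the quasi-likelihood test called 2, 989 and 67 in the second, the third and the fourth. Leaving out each replicate, with and without the block, gave 0 to 51, 0 to 960, 0 to 3468, 0 to 3634 and 0 to 720 genes; the P29 control could not be left out.

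For the members, the P28+24h value of PCDH1 turned from 0.79 to -1.08 with the block in both tests, -1.09 with the block and RLE factors and -1.02 with the block and library size only, and that of PCDH9 from -0.07 to 0.041 with library size only. From P8 to P29 control, PCDH1 turned from -1.75 to 0.14 with the block in both tests and 0.13 with RLE factors, PCDH18 from -0.32 to 0.059 and 0.046, and PCDH9, at 0.36, became a call at 1.15 and 1.14. The difference in response turned for PCDH1 to -0.96 with the block, -0.97 in the likelihood ratio test, -0.98 with RLE factors and -0.87 with library size only, and for PCDH9 to -0.64, -0.64, -0.66 and -0.58. Leaving out each replicate, PCDH1 ran from -2.15 to 1.84 at P7+24h, -1.25 to 1.52 at P28+24h, -2.54 to 0.20 from P8 to P29, -2.68 to 1.18 between injured groups and -1.15 to 2.93 in the difference. PCDH9 ran from -1.12 to 0.66, -1.08 to 0.34, -0.14 to 1.22, -0.23 to 1.41 and -0.90 to 1.05, and PCDH18 from -0.60 to 0.22, -1.10 to -0.38, -0.66 to 0.11, -1.05 to -0.32 and -0.87 to 0.0054. In the 10 blocked fits all 3 members were below 0 at P28+24h, and PCDH9 was above 0 from P8 to P29 control. Without the block, leaving out a library of a compared group changes which runs that group holds, so the run difference enters its value. The cause of these changes was not tested beyond the construction of each fit. The single P29 control library, from run 1, limits every comparison that uses it.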
